A study of Mus musculus with 11 samples.

Results

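Described here are the 25 membrane transporter, channel and pump genes of a deposited signature of 638 genes. They were chosen by symbol (Slc, Abc, Atp, Kcn, Clcn, Trp or Tmem at its start) or by the words transporter, solute carrier or channel in the gene name. The rule took 29 rows, of which 3 were left out by name and P2rx7, an ATP-gated channel, because its name holds the word receptor. Of the 25, 13 carry a transporter or pump symbol, 4 were found by a word of the name (Hvcn1, Cacna1b, Tmc7 and Tpcn1) and 8 are Tmem genes. The name Tmem says only that a protein crosses a membrane, so by name alone the label fits the other 17 better. Of the 8 Tmem genes, Tmem63a, Tmem176a and Tmem176b are described below as channels. No member has a Kcn, Clcn or Trp symbol.

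The series profiled granulocyte-macrophage progenitors (GMPs, marrow precursors of neutrophils and of monocytes) in mice whose loss of Irf8 causes a disease like chronic myeloid leukaemia. The cells were sorted as lineage-depleted Sca-1-negative, c-Kit+, CD34+ and Fc gamma receptor-high from pools of mice, and RNA amplified from very small inputs was hybridised to Affymetrix mouse arrays. The 4 control arrays come from mice labelled MxCre–Ctnnb1(Ex3)fl/+, which carry 1 excisable allele of beta-catenin; whether the dash marks a missing Cre is not stated. The 3 Irf8 KO arrays come from mice without the transcription factor Irf8, which the series text describes as carrying the floxed Ctnnb1 allele too. The 4 arrays labelled Irf8 KO / b-cat(Ex3), called Irf8/beta-catenin below, come from Irf8-knockout mice in which exon 3 of 1 Ctnnb1 allele was deleted, which leaves a beta-catenin that is not degraded. Mice of every group were injected with 400 µg of poly(I:C) on days 0, 3 and 5. This RNA mimic induces interferon, which drives the Mx promoter of the Cre, and cells were harvested 10 to 14 days later. The Mx promoter responds in many cell types besides GMPs, and each array stands for a pool of animals. No age is stated for the mice. The series text also names mice with the exon deletion alone, which were not analysed here.

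Solute carriers use gradients to move nutrients, metabolites and metals across membranes, ABC proteins and P-type ATPases spend ATP to move their cargo, and channels let ions pass when a gate opens. In phagocytes such proteins are known for carrying the charge and acid of the oxidative burst, for exporting lactate made by glycolysis and for filling or emptying endosomes and lysosomes. How far GMPs depend on most of the genes below is not part of that background.

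The groups behind the signature could be found from the arrays. In all 638 rows the authors' deposited linear fold equalled the difference between the mean of the 4 Irf8/beta-catenin arrays and the mean of the 4 control arrays for exactly 1 of 45037 probe sets, within 1e-08 on the log2 scale, while the next nearest probe set was at least 8.7e-07 away. Differences against the Irf8-knockout arrays matched 0 rows, and so did the same difference with its sign turned. A positive deposited value therefore means a higher level in Irf8/beta-catenin GMPs than in control GMPs. The same join ties each of the 25 genes to 1 probe set and so to a value on each of the 11 arrays. Other probe sets of these genes, and genes outside the signature, have no name here. Since the signature was chosen on this contrast, at least 1.5-fold with p-values up to 0.0016, the difference between Irf8/beta-catenin and control arrays is given below as a description only. The other 2 differences share arrays with it and are not independent of the choice either. The limits may not be the whole choice. Between Irf8/beta-catenin and control arrays, 1972 probe sets passed limma at an adjusted p under 0.05 and at least 1.5-fold. Differences over all probe sets ran from -6.40 to 5.56 on the log2 scale, against -3.47 to 3.69 in the 638 rows. These are probe sets, several of which can belong to 1 gene, and limma's threshold is not that of the authors' unstated test. The counts are therefore not directly comparable. Whether anything else was used, and whether it drew on the knockout arrays, is not known here.

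The targeted gene and the arrays were looked at first. Irf8 read 9.38, 9.46, 9.78 and 9.23 in the controls, 8.60, 7.90 and 8.89 in the Irf8-knockout arrays and 8.35, 8.63, 7.51 and 7.77 in the Irf8/beta-catenin arrays. Every knockout value lay below every control value, but where this probe set lies relative to the deleted part of Irf8 is not known, so it does not check the labels. Ctnnb1 is not in the signature. Control replicate 4 stood apart from its group, with correlations to the other controls of 0.981 to 0.987. Irf8/beta-catenin replicates 2 and 3 lay at opposite ends of the second principal component (49.85 and -49.5) and had the lowest correlation in their group with each other, 0.971. The signature names none of the 10 GMP markers on the list, so the sorted population could not be checked against its own markers. Cd177, the 1 named neutrophil marker of 12, read 3.73 to 4.17 in control replicates 1 to 3 but 6.82 in control replicate 4, and 6.32 to 9.57 in the other groups. The mean over Gata1 and Car1, 2 of 14 erythroid and megakaryocyte markers, was 5.00 to 5.84 in the controls, 3.19 to 3.46 in the knockouts and 3.02 to 3.29 in the Irf8/beta-catenin arrays. That of Irf8 and Klf4, 2 of 11 monocyte and dendritic markers, was 8.23 to 8.64, 6.16 to 6.79 and 5.91 to 6.29. Irf8 is the gene lost in both mutant groups, so its part in this mean cannot stand for cell content. Klf4 alone read 7.22 to 7.91, 3.72 to 5.67 and 3.48 to 5.08. The mean of Hdc and Mcpt8, 2 of 9 basophil, mast cell and eosinophil markers, was 7.47 to 8.28, 6.92 to 7.33 and 6.28 to 6.98. The lymphoid marker Thy1, 1 of 10, read 3.04 to 4.48, 2.81 to 2.91 and 2.18 to 2.77, and the 7 stem and multipotent markers were not named. No named marker was at 0. Only signature rows have a name, so the difference of each marker between Irf8/beta-catenin and control arrays follows from the choice. In bulk arrays fewer cells of a type and less RNA per cell cannot be told apart, and the part of these markers in the values below was not tested.

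The upstream bases of 4 members are shown because they match motifs known for Irf factors or for the DNA-binding partners of beta-catenin. RefSeq (GRCm38.p6) gives start sites for 21 of the 25 genes, and the 250 bases before each start were searched on both strands. For TCF and LEF, the DNA-binding partners of beta-catenin, CTTTGAT or CTTTGAA was found upstream of 4 of the 21 (19.0%), against 8.63% of 27025 genes. Tmem176a and Tmem176b share 1 and the same match, since they lie back to back, and Tmem26 and Tmem218 hold the others. GGAA and GAAA with 2 bases between them, the composite site of PU.1 with Irf8 or Irf4, was found in Slc4a8 alone, against 2.68% of all genes. A pair of GAAA with 2 bases between them, the core of the interferon-stimulated response element bound by Irf factors, was found in Tmc7 alone, against 3.46% of all genes. Matches of the last 2 motifs can overlap. Capitals mark the match, and each sequence runs 5′ to 3′ up to the base before the start.
Tmem176b (GRCm38.p6, chr6:48841138-48841387, minus strand): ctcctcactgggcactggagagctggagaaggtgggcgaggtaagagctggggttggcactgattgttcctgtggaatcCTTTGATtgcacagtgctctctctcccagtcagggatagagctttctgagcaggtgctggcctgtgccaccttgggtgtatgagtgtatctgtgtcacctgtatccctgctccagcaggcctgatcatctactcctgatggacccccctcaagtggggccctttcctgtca
Tmem26 (GRCm38.p6, chr10:68723496-68723745, plus strand): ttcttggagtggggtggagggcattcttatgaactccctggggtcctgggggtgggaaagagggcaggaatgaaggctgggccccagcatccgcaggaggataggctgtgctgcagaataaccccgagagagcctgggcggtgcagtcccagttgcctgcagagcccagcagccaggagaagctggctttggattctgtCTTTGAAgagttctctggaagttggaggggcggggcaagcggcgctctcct
Slc4a8 (GRCm38.p6, chr15:100761497-100761746, plus strand): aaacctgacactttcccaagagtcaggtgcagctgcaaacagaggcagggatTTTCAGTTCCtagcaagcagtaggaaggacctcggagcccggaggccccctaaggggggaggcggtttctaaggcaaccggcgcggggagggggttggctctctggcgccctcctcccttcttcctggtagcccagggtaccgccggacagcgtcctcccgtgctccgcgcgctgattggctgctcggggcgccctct
Tmc7 (GRCm38.p6, chr7:118584687-118584936, minus strand): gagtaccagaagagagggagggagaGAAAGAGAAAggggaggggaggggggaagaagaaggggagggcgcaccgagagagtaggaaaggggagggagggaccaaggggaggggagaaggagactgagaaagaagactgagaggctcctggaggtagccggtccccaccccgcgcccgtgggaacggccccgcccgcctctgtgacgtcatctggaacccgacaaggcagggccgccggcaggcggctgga
In Slc4a8 the match stands on the opposite strand. A match describes the letters only, and binding was not measured.

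Of the 25 genes, 17 were higher and 8 lower in Irf8/beta-catenin than in control GMPs, 68% positive, against 61.8% of all 638 rows. The median size was 0.88 on the log2 scale for the 25 and 0.92 for all rows, and 10 of the 25 (40%) differed at least 2-fold, against 42.0% of the table. The share and the sizes were thus close to those of the signature as a whole. Between Irf8/beta-catenin and control arrays, 25 of 25 passed limma's test at an adjusted p under 0.05, against 6.13% of all probe sets, and 23 did not overlap, against 12.1%. Both follow from the choice.

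For 16 of the 25 genes the larger difference was the one between Irf8-knockout and control means, and for 9 the one between Irf8/beta-catenin and knockout means. Over the 17 positive genes the Irf8-knockout mean lay 0.23 to 1.02 (median 0.49) above control on the log2 scale, and the Irf8/beta-catenin mean lay a further 0.13 to 0.75 (median 0.36) above the knockout mean. Over the 8 negative genes the corresponding differences ran from -1.12 to -0.31 (median -0.54) and from -1.01 to -0.05 (median -0.32). Over all probe sets, not split by direction, the medians were 0.01 for knockout minus control and 0.00 for Irf8/beta-catenin minus knockout. Without regard to sign, the median knockout minus control difference was 0.49 for the 25, 0.60 for the signature rows and 0.13 over all probe sets. For Irf8/beta-catenin minus knockout these were 0.36, 0.33 and 0.12, so the 25 were close to the signature as a whole. A choice on the outer contrast favours a knockout mean between the other group means, and the 2 differences share the knockout arrays.

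Tmem63a, Tmem218 and Tmem26 passed the test between Irf8-knockout and control arrays (limma over all probe sets, adjusted p = 0.0172, 0.0195 and 0.0184). That is 3 of 25 (12%), against 1.75% of all probe sets and 118 of the 638 signature rows (18.5%). The 3 calls rest on few arrays: without control replicate 2 or without knockout replicate 1, 0 of the 25 passed. Without control replicate 1 Tmem26 alone passed, and without knockout replicate 2 Tmem218 alone. Knockout and control arrays did not overlap for 13 of the 25 genes, against 13.9% of all probe sets and 62.9% of the signature.

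Between Irf8/beta-catenin and Irf8-knockout arrays, 0 of the 25 genes passed (limma, adjusted p from 0.467 to 0.975), against 0.00444% of all probe sets, which is 2 of 45037. At an unadjusted p under 0.05 there were 9 of 25 (36%), against 7.07% of all probe sets and 37.8% of the signature, and limma-trend and array weights also called 0. Of the 638 signature rows 1 passed, the antiviral oligoadenylate synthetase Oas3, named here after its value was seen. Groups did not overlap for 5 genes (Atp8b2, Slc16a3, Slc43a2, Tmem110 and Tmem63a), 20% of the 25, against 6.74% of all probe sets and 27.7% of the signature. These p-values do not show that the genes were equal in both groups: with 3 and 4 arrays the median standard error over the 25 was 0.19 on the log2 scale.

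**Figure D1:**
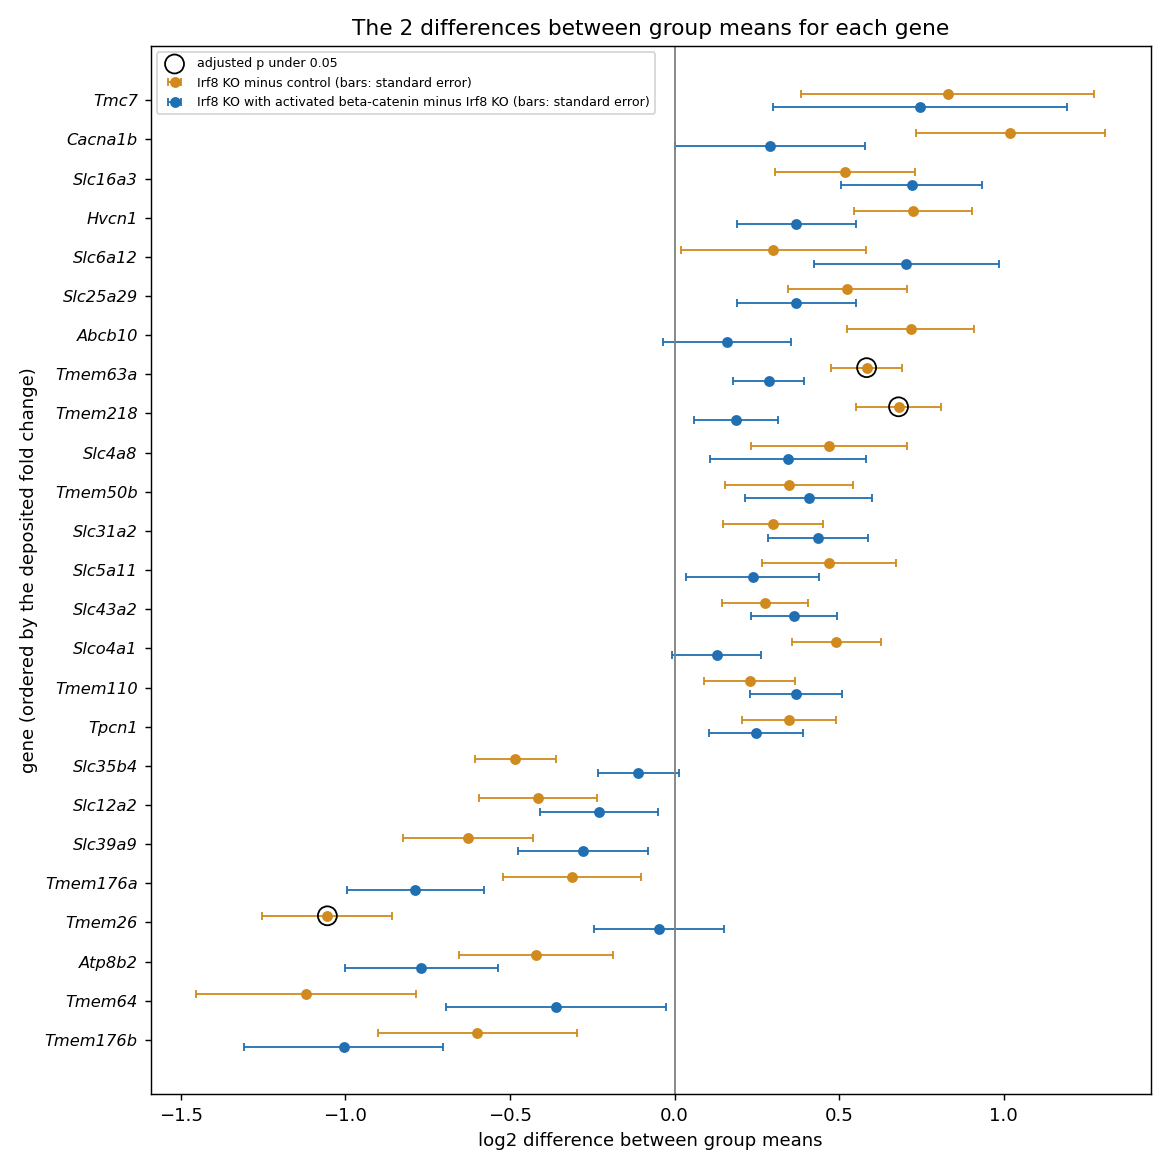
Log2 difference of Irf8-knockout minus control GMPs (orange) and of Irf8/beta-catenin minus Irf8-knockout GMPs (blue) for each of the 25 genes, with limma's standard error as bars and a ring around the values with an adjusted p under 0.05. The 3 rings, on Tmem63a, Tmem218 and Tmem26, are all on the knockout minus control difference.

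The genes are described in order of their roles, an order made with their directions known. Directions shared within a role are therefore a description only and carry no weight. Those that carry acid, lactate and bicarbonate come first, and all were higher in Irf8/beta-catenin than in control GMPs. Hvcn1 is the voltage-gated proton channel that lets protons out of phagocytes during the oxidative burst. The control arrays gave 7.79, 7.92, 7.89 and 8.43 for Hvcn1, against 8.73, 8.80 and 8.67 in the knockouts and 9.13, 8.78, 8.98 and 9.51 with beta-catenin activated as well. Each knockout array was above each control array, control replicate 4 was the highest control, and Irf8/beta-catenin replicate 2 fell among the knockouts. The knockout mean was 0.72 ± 0.18 (SE) above control (limma, adjusted p = 0.0751). In the authors' deposited table Hvcn1 stood at 1.09 (2.13-fold, p = 6.65e-05). Without control replicate 4 the knockout minus control difference of Hvcn1 passed.

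Slc16a3 (MCT4) exports lactate from glycolytic cells. For Slc16a3 the log2 values were 4.82, 5.09, 5.12 and 5.55 in control GMPs, 5.88, 5.62 and 5.49 in Irf8-knockout GMPs and 6.30, 6.04, 6.26 and 6.94 in Irf8/beta-catenin GMPs. All 4 Irf8/beta-catenin arrays were above all knockouts, by 0.72 ± 0.21 (SE) in the mean (limma, adjusted p = 0.522), whereas the knockouts overlapped the controls through control replicate 4. Slc4a8 is a sodium-driven chloride and bicarbonate exchanger whose upstream bases are printed above. Values of Slc4a8 ran 5.56, 5.62, 5.70 and 5.74 over the controls, 6.25, 6.65 and 5.47 over the Irf8 knockouts and 6.10, 6.36, 6.79 and 6.64 over the Irf8/beta-catenin arrays. The knockout arrays were spread widely, with replicate 2 above 3 of the 4 Irf8/beta-catenin arrays and replicate 3 below every control. The authors' deposited table gave 1.24 for Slc16a3 and 0.81 for Slc4a8.

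Channels and a regulator of calcium entry did not share 1 direction: Tmc7, Cacna1b, Tmem63a, Tpcn1 and Tmem110 were higher, whereas Tmem176a and Tmem176b, described further on, were lower. Tmc7 belongs to the transmembrane channel-like family, whose best known members serve hearing. It had the largest positive value of the 25 in the authors' deposited table, 1.58 (2.98-fold, p = 0.000867). Tmc7 read 3.96, 4.29, 4.05 and 4.79 in the controls, 5.96, 5.13 and 4.21 in the Irf8-knockout arrays and 4.97, 5.33, 6.59 and 6.49 in the Irf8/beta-catenin arrays. The spread within the groups was wide, with knockout replicate 3 inside the control range and knockout replicate 1 above 2 of the 4 Irf8/beta-catenin arrays. Cacna1b is the pore of the N-type calcium channel, known from nerve terminals. The control arrays gave 1.96, 2.04, 1.81 and 1.53 for Cacna1b, against 2.69, 3.09 and 2.78 in the knockouts and 2.87, 3.44, 3.90 and 2.37 with beta-catenin activated as well. Every value was below its array's median (3.92 to 4.09), so the probe set was dim throughout; knockouts and controls did not overlap.

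Tmem63a is an ion channel opened by membrane stretch or osmotic change. For Tmem63a the log2 values were 8.60, 8.47, 8.65 and 8.69 in control GMPs, 9.38, 9.17 and 9.02 in Irf8-knockout GMPs and 9.42, 9.47, 9.57 and 9.44 in Irf8/beta-catenin GMPs. The 3 groups did not overlap. The knockout mean was 0.58 ± 0.11 (SE) above control and the Irf8/beta-catenin mean a further 0.29 ± 0.11 above the knockout mean, the latter with an adjusted p of 0.631 in limma. Tpcn1, a cation channel of endosomes and lysosomes, read 7.07 to 7.25 in the controls, 7.48 to 7.49 in the knockouts and 7.41 to 7.98 in the Irf8/beta-catenin arrays. Irf8/beta-catenin replicates 3 and 4 were the high ones. Tmem110 (now Stimate), a regulator of store-operated calcium entry at contacts between endoplasmic reticulum and plasma membrane, read 3.50 to 3.90, 3.79 to 4.12 and 4.14 to 4.52 in the same order. Its knockouts overlapped the controls, and all Irf8/beta-catenin arrays were above the knockouts.

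Carriers of organic solutes in the signature were Slc6a12, Slc5a11, Slc43a2 and Slco4a1, each higher in Irf8/beta-catenin GMPs. Slc6a12 (BGT1) takes up betaine, an osmolyte, and GABA. Values of Slc6a12 ran 3.00, 3.07, 3.24 and 3.23 over the controls, 3.41, 3.21 and 3.69 over the Irf8 knockouts and 3.96, 3.48, 4.06 and 5.07 over the Irf8/beta-catenin arrays. Irf8/beta-catenin replicate 4 was more than 1 log2 unit above the next array, and knockouts overlapped both other groups. Slc6a12 was below the array's median on 9 of 11 arrays. Slc5a11 (SMIT2) takes up inositol with sodium. Slc5a11 read 3.93, 4.14, 3.67 and 4.55 in the controls, 4.45, 4.86 and 4.31 in the Irf8-knockout arrays and 4.79, 4.54, 4.74 and 5.06 in the Irf8/beta-catenin arrays. All 3 groups overlapped one another, control replicate 4 being the highest control. Slc43a2 (LAT4) carries branched-chain and other neutral amino acids. The control arrays gave 5.49, 5.38, 5.81 and 5.63 for Slc43a2, against 5.96, 5.83 and 5.77 in the knockouts and 6.17, 6.48, 6.13 and 6.09 with beta-catenin activated as well. The Irf8/beta-catenin arrays were above all knockouts and controls. Slco4a1, an organic anion transporter that carries thyroid hormone, was tight in 2 groups: 5.80 to 5.92 in the controls and 6.33 to 6.39 in the knockouts, against 6.19 to 6.80 in the Irf8/beta-catenin arrays. Its knockout minus control difference, 0.49 ± 0.14 (SE), had an adjusted p of 0.11 in limma.

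Of the mitochondrial and metal carriers, Slc25a29, Abcb10 and Slc31a2 were higher and Slc39a9 was lower. Slc25a29 brings basic amino acids into mitochondria. For Slc25a29 the log2 values were 3.19, 3.52, 3.59 and 3.92 in control GMPs, 4.19, 4.18 and 3.87 in Irf8-knockout GMPs and 4.76, 4.54, 4.19 and 4.31 in Irf8/beta-catenin GMPs. Control replicate 4 was the highest control and overlapped the knockouts. Abcb10 is an ABC transporter of the inner mitochondrial membrane that is needed for haem synthesis in red cell precursors. Values of Abcb10 ran 5.56, 6.43, 6.18 and 6.43 over the controls, 6.94, 6.94 and 6.73 over the Irf8 knockouts and 6.94, 6.96, 7.30 and 6.91 over the Irf8/beta-catenin arrays. Knockouts and Irf8/beta-catenin arrays overlapped at a level 0.72 ± 0.19 and 0.88 ± 0.18 (SE) above control, and control replicate 1 was the lowest array. Its direction was opposite to that of the erythroid markers Gata1 and Car1, which the signature holds as lower.

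Slc31a2 (CTR2) is a copper transporter of endosomes and lysosomes. Slc31a2 read 6.08, 6.38, 6.24 and 6.55 in the controls, 6.93, 6.49 and 6.41 in the Irf8-knockout arrays and 6.95, 7.17, 7.17 and 6.90 in the Irf8/beta-catenin arrays. Knockout replicate 1 reached the Irf8/beta-catenin range and the other knockouts lay near the controls. Slc39a9 (ZIP9) carries zinc. The control arrays gave 4.60, 4.99, 4.39 and 4.60 for Slc39a9, against 3.83, 4.20 and 4.02 in the knockouts and 3.77, 3.27, 3.74 and 4.17 with beta-catenin activated as well. All knockout and Irf8/beta-catenin arrays were below all controls, and Irf8/beta-catenin replicate 2 was the lowest. The authors' deposited table gave 0.735 for Slc31a2 and -0.91 for Slc39a9.

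**Figure D2:**
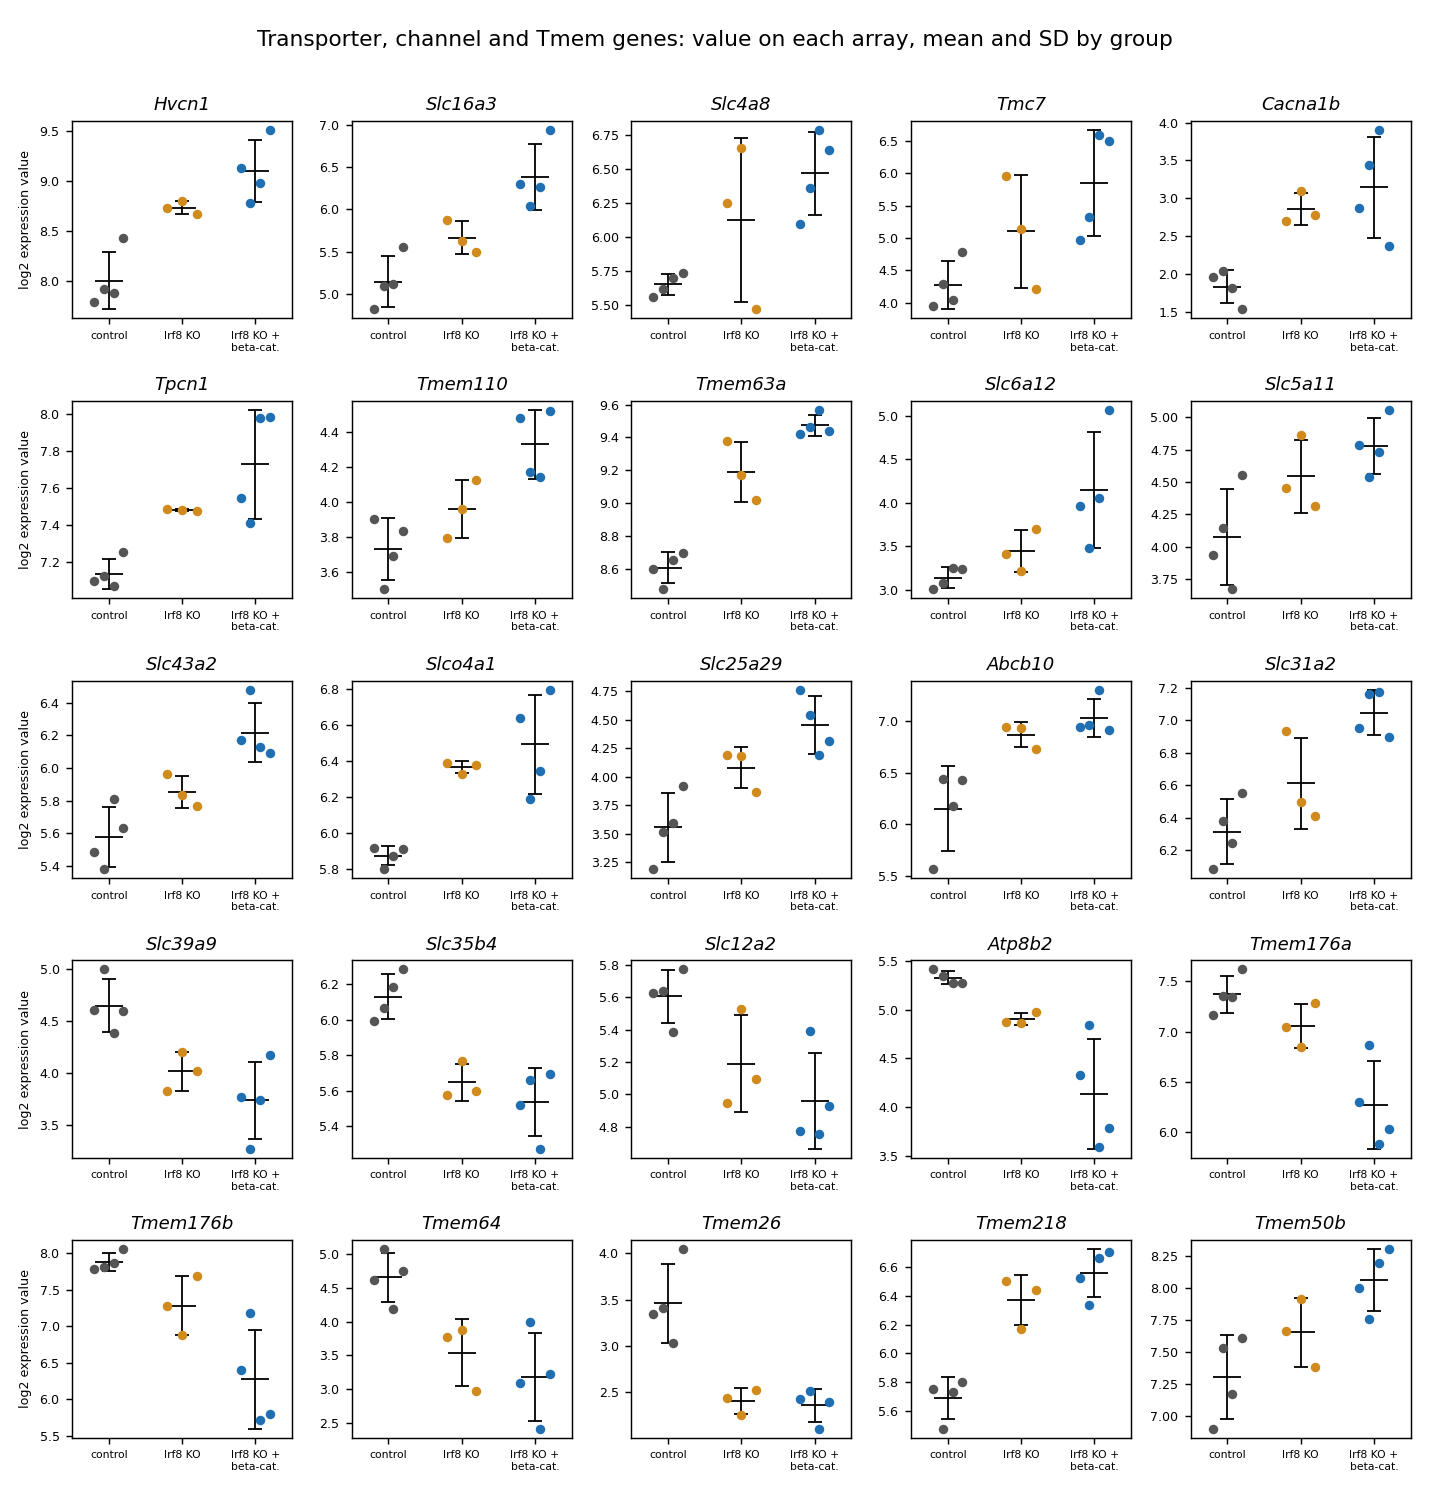
Log2 expression value of each of the 25 genes on every array (points; 4 control, 3 Irf8-knockout and 4 Irf8/beta-catenin arrays), with the group mean and SD as a bar; each panel has its own vertical axis, which does not start at 0. Irf8-knockout points sit apart from the control points in 13 panels, and apart from the Irf8/beta-catenin points in 5.

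The remaining carriers, Slc35b4, Slc12a2 and Atp8b2, have unrelated cargoes, and each was lower. Slc35b4 brings nucleotide sugars into the Golgi for the building of glycans. For Slc35b4 the log2 values were 5.99, 6.07, 6.18 and 6.28 in control GMPs, 5.58, 5.77 and 5.60 in Irf8-knockout GMPs and 5.52, 5.66, 5.27 and 5.69 in Irf8/beta-catenin GMPs. Knockout and Irf8/beta-catenin arrays overlapped and lay below all controls. It is the member nearest to the 1.5-fold limit of the signature, at -0.59 in the authors' deposited table. Slc12a2 (NKCC1) takes up sodium, potassium and chloride together and sets cell volume. Values of Slc12a2 ran 5.63, 5.64, 5.38 and 5.77 over the controls, 4.95, 5.53 and 5.09 over the Irf8 knockouts and 4.77, 5.39, 4.75 and 4.93 over the Irf8/beta-catenin arrays. The groups overlapped, with knockout replicate 2 and Irf8/beta-catenin replicate 2 within the range of the controls.

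Atp8b2 is a P4-ATPase, a flippase that moves phospholipids to the inner leaflet of the plasma membrane. Atp8b2 read 5.41, 5.34, 5.27 and 5.28 in the controls, 4.87, 4.86 and 4.98 in the Irf8-knockout arrays and 4.33, 4.84, 3.58 and 3.79 in the Irf8/beta-catenin arrays. The controls and the knockouts were each within a narrow range and apart, and the Irf8/beta-catenin arrays ran from just under the knockouts to far below. The Irf8/beta-catenin mean was 0.77 ± 0.23 (SE) below the knockout mean (limma, adjusted p = 0.528). The authors' deposited table gave -1.19 (2.28-fold, p = 3.38e-05).

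Of the other Tmem genes 4 were lower and 2 higher, and they held the 2 largest negative values. Tmem176a and Tmem176b are adjacent genes whose proteins are described as cation channels of intracellular membranes, known from dendritic cells and other immune cells. The control arrays gave 7.78, 7.81, 7.87 and 8.05 for Tmem176b, against 7.28, 6.87 and 7.68 in the knockouts and 6.40, 7.18, 5.72 and 5.80 with beta-catenin activated as well. For Tmem176a the log2 values were 7.17, 7.35, 7.35 and 7.62 in control GMPs, 7.05, 6.85 and 7.28 in Irf8-knockout GMPs and 6.30, 6.87, 5.88 and 6.03 in Irf8/beta-catenin GMPs. Both genes put the arrays of each mutant group in the same order: among the knockouts replicate 3 was highest and replicate 2 lowest, and among the Irf8/beta-catenin arrays replicate 2 was highest, then 1, 4 and 3. For both genes knockout replicate 2 reached the Irf8/beta-catenin range. The knockouts overlapped the controls for Tmem176a and lay below all controls for Tmem176b. Atp8b2 gave the same order among the Irf8/beta-catenin arrays. The probe set of Tmem176a carries the suffix x, by which the maker marks probes that can also match other sequences, and cross-hybridisation between the pair was not tested.

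For Tmem176b the Irf8/beta-catenin mean was 1.01 ± 0.30 (SE) below the knockout mean and the knockout mean 0.60 ± 0.30 below control. For Tmem176a these were 0.79 ± 0.21 and 0.31 ± 0.21. With all arrays these were the largest Irf8/beta-catenin minus knockout differences of the 25, and neither passed (limma, adjusted p = 0.528 and 0.467). Without Irf8/beta-catenin replicate 2 the differences were -1.31 and -0.99 (limma, adjusted p = 0.101 and 0.0843), and that of Atp8b2, -1.005 (adjusted p = 0.0988), was then larger than that of Tmem176a. Without replicate 3 they were -0.82 for Tmem176b, -0.66 for Tmem176a and -0.59 for Atp8b2 (limma, adjusted p = 0.462, 0.418 and 0.459). Slc16a3 (0.76) and Slc6a12 (0.73), which were higher, then had larger differences in size than Tmem176a. The authors' deposited table gave -1.60 for Tmem176b (3.04-fold, p = 0.000387) and -1.10 for Tmem176a. Adjacent signature genes were not particular to this pair: 4 of the 25 (16%) had a protein-coding neighbour in the signature, against 11.2% of 609 rows with a match in RefSeq. The other such neighbours were Rhobtb1 beside Tmem26, negative as well at -1.09, and Arhgap17 beside Slc5a11, opposite to it at -1.26 in the authors' deposited table.

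**Figure D3:**
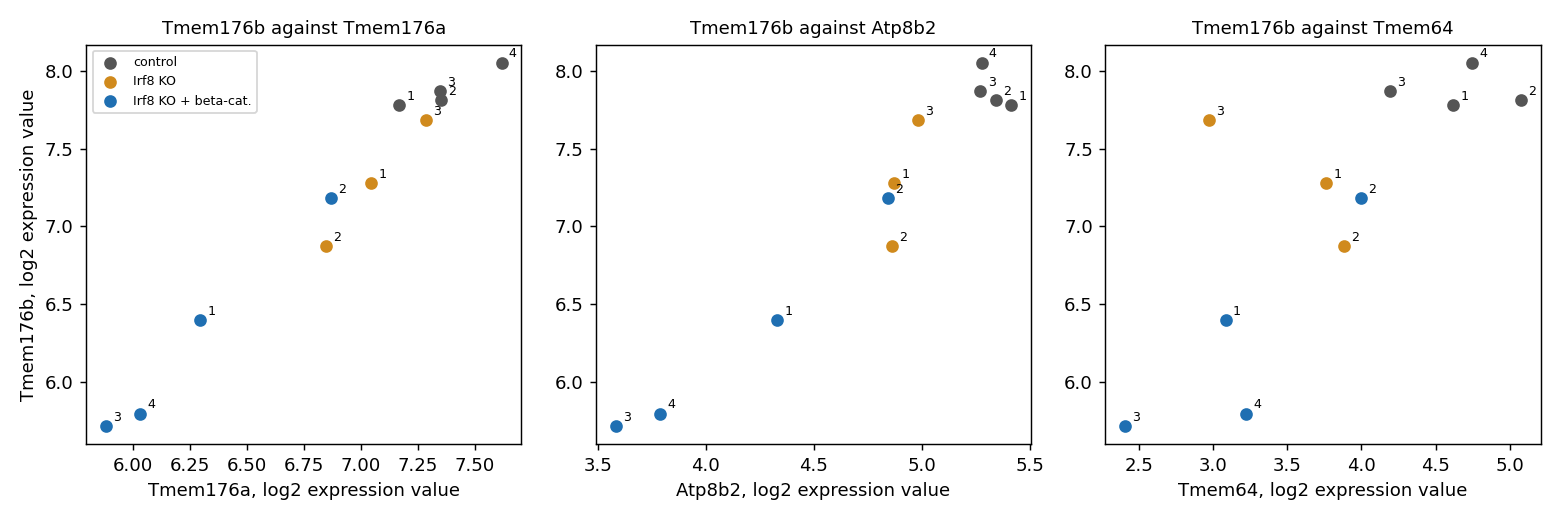
Log2 expression value of Tmem176b against Tmem176a, Atp8b2 and Tmem64 on the 11 arrays (grey control, orange Irf8-knockout, blue Irf8/beta-catenin; numbers are replicates). Among the Irf8/beta-catenin arrays replicate 2 lies nearest to the knockouts in all 3 panels, and replicate 3 is the lowest array for Tmem176a, Tmem176b, Atp8b2 and Tmem64.

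Tmem64, a regulator of calcium signalling known from bone cells, had the second largest negative value. Values of Tmem64 ran 4.62, 5.07, 4.19 and 4.75 over the controls, 3.76, 3.88 and 2.97 over the Irf8 knockouts and 3.08, 4.00, 2.41 and 3.22 over the Irf8/beta-catenin arrays. Knockouts and controls did not overlap, the difference being -1.12 ± 0.33 (SE; limma, adjusted p = 0.142), and Irf8/beta-catenin replicate 2 was above every knockout. Tmem26 is known as a surface marker of beige fat cells, and a role in GMPs is not part of that background. Tmem26 read 3.35, 3.41, 3.03 and 4.04 in the controls, 2.44, 2.25 and 2.52 in the Irf8-knockout arrays and 2.42, 2.51, 2.11 and 2.39 in the Irf8/beta-catenin arrays. The knockout mean was 1.05 ± 0.20 (SE) below control, and the Irf8/beta-catenin mean differed from the knockout mean by only -0.05 ± 0.20. It was dim, below the array's median on 10 of 11 arrays.

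Tmem218, a protein of the primary cilium, was higher. The control arrays gave 5.75, 5.48, 5.73 and 5.80 for Tmem218, against 6.50, 6.17 and 6.44 in the knockouts and 6.53, 6.34, 6.66 and 6.70 with beta-catenin activated as well. Every knockout was above every control, by 0.68 ± 0.13 (SE) in the mean, with 0.19 ± 0.13 more in the Irf8/beta-catenin arrays. Tmem50b is a protein of endoplasmic reticulum and Golgi whose role is not settled. For Tmem50b the log2 values were 6.90, 7.53, 7.17 and 7.61 in control GMPs, 7.66, 7.91 and 7.38 in Irf8-knockout GMPs and 8.0, 7.75, 8.19 and 8.30 in Irf8/beta-catenin GMPs. Knockouts overlapped both other groups.

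Single arrays were often at 1 end of their group across the 25 genes. Control replicate 4 was the highest control for 11 of the 17 positive and 5 of the 8 negative genes. Irf8/beta-catenin replicate 2 was the lowest of its group for 8 of the 17 positive and the highest for 6 of the 8 negative genes, the side of the other groups in both cases. Irf8/beta-catenin replicate 3 was the lowest of its group for 7 of the 8 negative genes. Knockout replicate 3 was the lowest knockout for 12 of the 17 positive genes. Among the same 17, control replicate 1 was the lowest control for 9, and knockout replicate 1 the highest knockout for 10. Irf8/beta-catenin replicate 4 was the highest of its group for 9 of them. Such ranks were not counted over all probe sets, so they describe these genes only. Without Irf8/beta-catenin replicate 3, 19 of the 25 genes passed between Irf8/beta-catenin and control, 4 between knockout and control and 0 between Irf8/beta-catenin and knockout. Of all 45037 probe sets, 2639, 812 and 1 passed in the same order. With control replicate 4 and Irf8/beta-catenin replicate 2 both left out, a choice made after the data were seen, 24 of the 25 genes passed between Irf8/beta-catenin and control, 4 between knockout and control and 0 between Irf8/beta-catenin and knockout. The corresponding counts among all 45037 probe sets were 3856, 1561 and 11.

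Of 183 genes in 9 lists of transporter and channel families, 7 were in the signature (3.83%), 5 positive and 2 negative. Of 21900 protein-coding genes in RefSeq 609 were in it (2.78%), and how many of either the array measures is not known here. By list these were 1 of 13 glucose, monocarboxylate and nucleoside carriers (Slc16a3), 1 of 19 amino acid carriers (Slc43a2), 1 of 16 ion and pH carriers (Slc12a2), 1 of 22 ABC transporters (Abcb10) and 3 of 40 ion channels (Hvcn1, Tpcn1 and P2rx7). None of 18 metal carriers, 15 mitochondrial carriers, 20 P-type pumps and flippases and 20 proton pump and ATP synthase genes was listed (0 in each). Slc31a2, Slc39a9, Slc25a29 and Atp8b2 stand outside those lists. The 3 signature rows left out by name, from among Abcc2, Abcc5, Atp6v0c and Mfsd2b, are on no list either. The counts for ABC transporters and proton pump genes, and the 3.83%, therefore depend on how the lists were made. Genes outside the table were not tested here by name.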

How the data were processed

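Gene expression was measured on 11 Affymetrix arrays of sorted GMPs. The authors deposited a table of log2 values for 45037 probe sets; their normalization is not given in the sources used here, and array means ran from 4.60 to 4.62. The authors' deposited signature lists for each gene, per the file headers, its log2 difference, a linear fold with a sign, and a p-value from a test that is not stated. The deposited folds were joined to probe sets as described above (tolerance 1e-08). Group differences were fitted with limma 3.58.1 in R 4.3.3 (lmFit, eBayes, all 11 arrays, group only), with Benjamini-Hochberg adjustment over all probe sets and an adjusted p under 0.05 as the call. The fit was tested on simulated data. No detection calls exist, so dim probe sets are bounded by the array medians, and the number of arrays limits the precision. The labels call arrays biological replicates.

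Alternatives were a filter on dim probe sets, quantile normalization, the replicate block, fits of 2 groups, limma-trend, array weights, other thresholds and leaving out each array. Genes are named by symbol; per-array values are given for up to 14 in each direction by deposited fold change, the others as ranges. Members and lists were chosen with earlier results of these data known. Counts of family genes over the array and averages over a gene's probe sets could not be made, since other probe sets are unnamed.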

Additional observations from a re-analysis of the deposited data

Results flagged for a closer look

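Abcb10 in Irf8/beta-catenin replicate 3 stood apart from its group, at 7.30 against 6.96 for the next array. Its gap to the next array took 0.866 of the group's range, above Dixon's critical value for 4 arrays. It was the only 1 of 50 groups of 4 arrays past that limit, where chance gives about 1 in 20.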

How the results depend on the processing

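The counts that moved by over 1.5 times were these. Between Irf8-knockout and control arrays, members passing went from 3 to 5 with only those 2 groups in the fit, 7 with array weights and 5 at an adjusted p under 0.1. Probe sets passing went from 789 to 1658 with array weights, 1301 at the looser threshold and 1561 without control replicate 4 and Irf8/beta-catenin replicate 2. Between Irf8/beta-catenin and control arrays probe sets went from 2761 to 4395 with array weights and 4386 at the looser threshold. Between Irf8/beta-catenin and knockout arrays they went from 2 to 0 in a fit of those groups alone (3182 at an unadjusted p under 0.05 in the fit of all groups, limma) and 11 without both arrays. Leaving out 1 array gave 0 to 5, 17 to 24 and 0 members, and 347 to 1039, 1477 to 3673 and 1 to 10 probe sets, for knockout minus control, Irf8/beta-catenin minus control and Irf8/beta-catenin minus knockout; the 10 came without Irf8/beta-catenin replicate 2. Without control replicate 1, 2 or 3 or knockout replicate 1 or 2 the first of these held 347 to 477 probe sets, and without control replicate 1, 2 or 3 the next held 1477 to 1609. The cause was not tested. The fit without control replicate 4 holds as few arrays and gave 1039 and 3673 probe sets for the same differences. The small Tmem26 difference between Irf8/beta-catenin and knockout arrays ran from -0.122 to 0.037 when 1 array was left out, turning to 0.014 without knockout replicate 3 and to 0.037 without Irf8/beta-catenin replicate 3. Deviations of same-numbered arrays from their group means correlated at -0.228 to 0.171. With 3 or 4 arrays a group and no reference from arrays of different number, this cannot show whether they share more than a number. With the replicate number as a block, members passing were 4, 23 and 0 for knockout minus control, Irf8/beta-catenin minus control and Irf8/beta-catenin minus knockout, and probe sets 658, 2443 and 2; for knockout minus control Hvcn1 (adjusted p = 0.0122, limma) and Tmem64 (0.0151) passed in addition, Tmem63a (0.0608) no longer passed, nor did Slc4a8 and Tmc7 (0.0898 and 0.0689) for Irf8/beta-catenin minus control. In the authors' table, 5 members were positive and 5 negative at 2-fold, and 9 and 4 with Slc, Abc, Atp, Kcn, Clcn or Trp symbols alone. Cacna1b left the test under the filter on dim probe sets. Family genes over the array and averages of a gene's probe sets were not run.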
